A study of Vitis vinifera with 2 samples.

Results

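The genes described here are those of the grape plastid genome, the small circular chromosome of the chloroplast and of the other plastids of a plant cell. They were chosen as all transcript models placed on the plastid sequence, 133 models with 116 gene names, out of 30516 genes in the tables. Of the 116 names, 78 were protein genes, 29 tRNA genes and 8 rRNA genes by the RefSeq gene table, which types the remaining name, ycf1, as a pseudogene. The yeast group was wound tissue of grape (Vitis vinifera) whose wounds had received 10 µL of suspended Yarrowia lipolytica, a yeast. The water group was wound tissue that had received as much sterile water instead. Both were held at 20 °C and taken at 3 days after treatment. Because the label for strain gives the yeast in the water sample too, groups follow the titles and the treatment text. With 1 library per group, no test was made and differences are not checked against replicates. The labels give no cultivar, no number of berries and no age of the fruit. 

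Plastids descend from cyanobacteria and have kept genes for the photosystems, the cytochrome b6f complex, the ATP synthase, the NDH complex and the large subunit of RuBisCO. They have also kept genes for their own RNA polymerase, ribosomes and tRNAs. Many of these genes are transcribed together in long runs and cut apart later, and in most plants a large inverted repeat carries the rRNA genes and several others in 2 copies. In fruit, chloroplasts lose much of their photosynthetic apparatus as the fruit ripens.

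The yeast library held 20540965 fragment equivalents and the water library 19010746. A fragment equivalent is 300 aligned bases, coverage times length divided by that number. It stands in for a pair of 150-base reads, a length that was assumed because the labels give none. Levels are in FPKM, fragments per kilobase of transcript scaled to library size, summed over the models of a gene name on the plastid genome. The ratio of the libraries is yeast FPKM over water FPKM, and brackets hold exact 95% counting intervals. Counting error is all that these intervals hold, and the spread between plants or wounds is not in them. Genes are called measured where 1 or both libraries reached 1 FPKM. Over all of them, the median ratio was 0.800. Ratios below 1 were therefore common in the whole table.

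Plastid genes took 0.0429% of all fragment equivalents in the yeast library (0.0421 to 0.0439) and 0.0487% in the water library (0.0477 to 0.0497). Their summed level was 284 FPKM with yeast and 308 FPKM with water, a ratio of 0.922 (0.896 to 0.950). Mitochondrial genes, the other organelle set, took 0.0651% with yeast and 0.0886% with water, and their summed FPKM had a ratio of 0.694 (0.679 to 0.710). Both organelle sums were lower in the yeast library on this scale, the plastid sum by less. The plastid ratio lay above the 0.800 median of all measured genes, and rescaling to that median turned its direction, to a log2 ratio of 0.21. In tissue samples, a different number of plastids or of cells that hold them and a different amount of RNA in each cannot be told apart. With 1 library per group, a difference between the library preparations cannot be told apart from these either.

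Most plastid signal was ribosomal. The 8 rRNA genes held 79.4% of plastid fragment equivalents in the yeast library and 82.6% in the water library. Without them, plastid genes took 0.00885% of all fragment equivalents with yeast (0.00845 to 0.00927) and 0.00847% with water (0.00806 to 0.00889), intervals that overlap. Their summed FPKM was then 114 in the yeast library and 114 in the water library, a ratio of 0.992 (0.927 to 1.06). In net terms the lower plastid sum in the yeast library therefore lay in the rRNA genes. The other genes were not all unchanged. The 73 protein genes placed outside the inverted repeat summed lower with yeast, at a ratio of 0.894 (0.829 to 0.963). The 4 protein genes wholly inside it summed higher, at a ratio of 2.30 (1.82 to 2.96).

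Outside rRNA, plastid genes were thinly covered. The median of the 108 other plastid genes was 0.753 FPKM with yeast and 0.678 FPKM with water. Of the 116 plastid genes, 53 reached an FPKM of 1 in either library and 48 reached 10 fragment equivalents. Another 37 had under 3 fragment equivalents in both libraries, and 7 genes were listed at 0 with yeast and 12 with water.

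**Figure D1:**
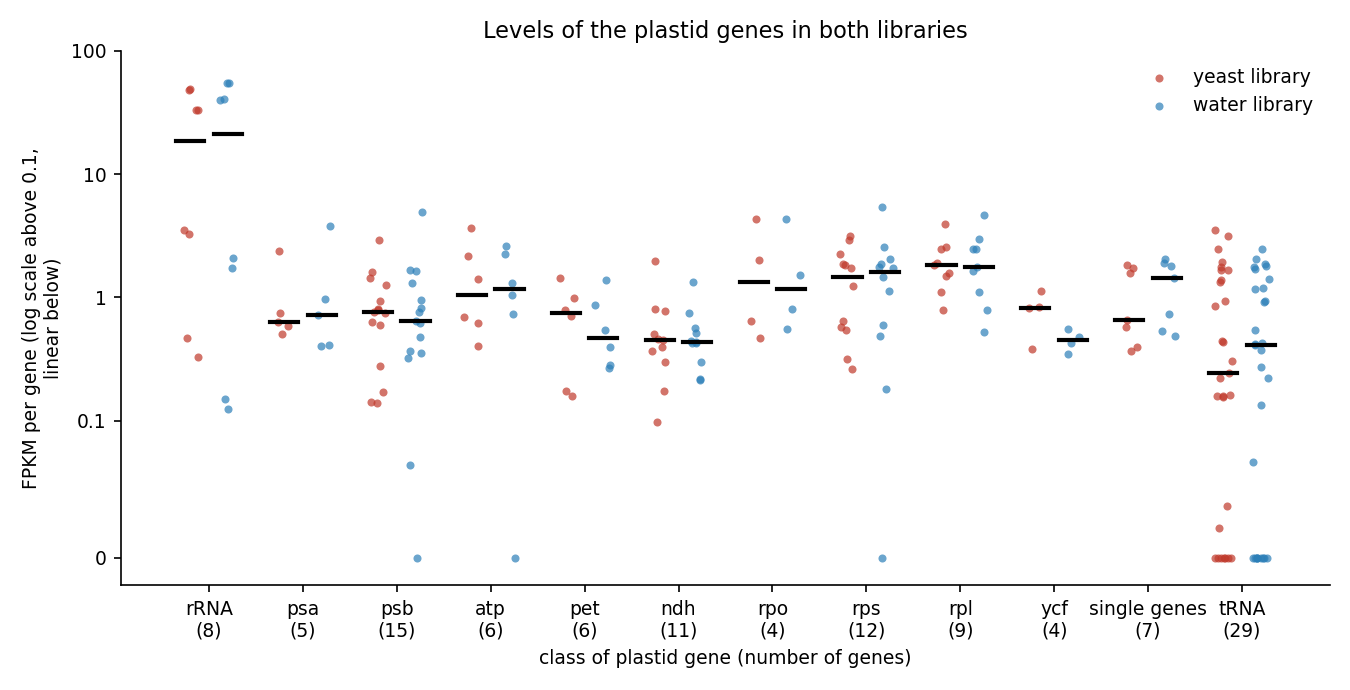
FPKM of each plastid gene (vertical axis, log scale above 0.1 and linear below) by class, with the yeast library left of the water library in each class; points are genes and black lines are medians. The 4 long rRNA genes stand between 33.3 and 54.6 FPKM in the 2 libraries, while the highest other gene is rps3 at 5.42 FPKM in the water library.

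Few plastid genes were past 2-fold. On log2 of (yeast FPKM + 1)/(water FPKM + 1), which shrinks the difference of such low genes, 2 of 53 measured plastid genes were past 2-fold on the higher side with yeast and 1 on the lower side. Among all 16046 measured genes 6.26% were higher and 3.66% lower, against 3.77% and 1.89% of the plastid genes, so these counts were not above the background. The median log2 ratio was -0.03 over the measured plastid genes and -0.28 over all measured genes. The higher genes were ndhB and trnR-UCU and the lower gene was psbI. Of these, trnR-UCU held 2.54 fragment equivalents with yeast and 0.317 with water, and psbI 0.403 with yeast and 3.63 with water. Neither difference was detectable at this depth.

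A plain ratio, chosen after the values were seen, was also taken over genes with at least 10 fragment equivalents in either library. Of 48 such plastid genes, 4 were at least 2-fold higher with yeast, 1 of them (psbB) only because it was listed at 0 with water, and 1 was at least 2-fold lower. Among all 18475 genes that reached this minimum 7.9% were higher and 13.1% lower, against 8.33% and 2.08% of the plastid genes. The 4 higher genes were ndhB, ycf2, rpl23 and psbB, and the lower gene was accD. The first 3 of these lie in the inverted repeat.

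The rRNA genes lie in the inverted repeat, each present once per copy under its own identifier. RefSeq types all 8 as rRNA. ViviCr001 and its mirror copy ViviCr008, both 1491 bases long, stood at 48.5 and 47.9 FPKM in the yeast library, against 54.6 and 54.6 FPKM in the water library. ViviCr002 and its copy ViviCr007, both 2803 bases long, stood at 33.4 and 33.3 FPKM with yeast, against 40.1 and 40.5 FPKM with water. All 4 were lower in the yeast library, with ratios from 0.824 to 0.889 and intervals below 1. These ratios lie above the median ratio of all measured genes, 0.800. The copies had nearly equal values. The sources used here do not give how fragments that match both were counted.

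The short rRNA genes had few fragments. ViviCr003 and its copy ViviCr006, of 103 bases, stood at 3.52 and 3.29 FPKM with yeast, against 1.74 and 2.08 FPKM with water. Their ratios were 2.03 (0.499 to 8.46) and 1.58 (0.415 to 7.60), which is no detectable difference. ViviCr004 and ViviCr005, of 121 bases, had 0.835 and 1.20 fragment equivalents with yeast and 0.298 and 0.359 with water.

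The photosystem genes are background markers of a green, light-harvesting plastid. The 20 psa and psb genes summed to 18.1 FPKM in the yeast library and 21.3 FPKM in the water library, a ratio of 0.852 (0.716 to 1.02). This sum includes psbB, listed at 0.759 FPKM with yeast and at 0 with water. Of 7 measured members, 1 was past 2-fold on the lower side and none on the higher side, against 3.66% and 6.26% of all measured genes. That gene was psbI, with the few fragments given above. Nuclear partners of this pathway could be followed only by symbol, and just 2 were found. PSBP1, a subunit of the oxygen-evolving side of photosystem II, stood at 0.988 FPKM with yeast and 1.07 FPKM with water. PSBP2, of the same family, stood at 0.378 FPKM with yeast and 0.802 FPKM with water, a ratio of 0.471 (0.164 to 1.07). Neither was past 2-fold on log2(FPKM + 1). The nuclear photosynthesis genes without a symbol were not analysed here.

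The psbA gene encodes a reaction centre protein of photosystem II that is replaced quickly in the light. It lies at positions 412 to 1473 of the plastid sequence, on the minus strand. It held 2.94 FPKM in the yeast library, from 66.0 fragment equivalents, and 4.96 FPKM in the water library, from 104. It was lower with yeast, at a ratio of 0.593 (0.428 to 0.813), an interval that holds the 0.800 median of all measured genes. The psbA gene was the highest photosystem gene in both libraries. A mitochondrial model with the same name stood at 1.17 FPKM with yeast and 1.80 FPKM with water. How reads were divided between these copies is not given, and the sum of both had a ratio of 0.608. Without psbA the photosystem sum was 15.2 FPKM with yeast and 16.3 FPKM with water, a ratio of 0.931 (0.752 to 1.16).

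Other psb genes had ratios on both sides of 1. The psbD gene, for the partner reaction centre protein, stood at 1.27 FPKM with yeast and 0.954 FPKM with water, a ratio of 1.33 (0.709 to 2.44). The psbC gene, for a chlorophyll-binding core antenna, stood at 1.61 FPKM with yeast and 1.30 FPKM with water, a ratio of 1.23 (0.790 to 1.97). Their coding regions overlap, so reads in the shared stretch can belong to either. Neither difference exceeded counting error. The psbE gene, for a subunit of cytochrome b559, stood at 0.795 FPKM with yeast and 1.64 FPKM with water, a ratio of 0.484 (0.103 to 1.74), from 4.23 and 8.14 fragment equivalents. The psbB gene, for the other core antenna, was listed at 0.759 FPKM with yeast, from 24.5 fragment equivalents, and at 0 with water. A listed 0 can be a failed estimate, and 2 more protein genes, rps2 and atpE, were listed at 0 in the water library. They stood at 0.549 and 0.403 FPKM in the yeast library, so no fold is given for these 3 genes. Their values remain in the photosystem sums, with or without psbA, and in the rps and atp sums.

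In photosystem I, psaA and psaB encode the reaction centre core. The psaA gene stood at 0.630 FPKM with yeast and 0.716 FPKM with water, and psaB at 0.510 FPKM with yeast and 0.405 FPKM with water. Their ratios of 0.880 (0.513 to 1.48) and 1.26 (0.647 to 2.43) went either way within counting error. The psaC gene, for the iron-sulphur subunit, was the highest of the psa genes at 2.38 FPKM with yeast and 3.80 FPKM with water, from 12.4 and 18.4 fragment equivalents. A mitochondrial psaC model had 2.32 FPKM with yeast and 3.65 FPKM with water, nearly the same values.

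The sums over the genes of electron transport and of ATP synthesis had ratios slightly above 1, with intervals that include 1. The 6 pet genes of the cytochrome b6f complex summed to 4.26 FPKM with yeast and 3.75 FPKM with water, a ratio of 1.14 (0.730 to 1.85). The 6 atp genes summed to 8.98 FPKM with yeast and 7.96 FPKM with water, a ratio of 1.13 (0.873 to 1.47). The highest of them was atpF, for a stator subunit of the membrane sector, at 3.68 FPKM with yeast and 2.64 FPKM with water, a ratio of 1.40 (0.843 to 2.29). The atpA gene, for the alpha subunit, stood at 1.40 FPKM with yeast and 1.04 FPKM with water. Of the 5 atp genes with at least 10 fragment equivalents, 2 had ratios above 1 and 3 below. The lowest was atpI, for a membrane subunit, at 0.694 FPKM with yeast and 1.32 FPKM with water, a ratio of 0.526 (0.232 to 1.19). The highest pet gene, petD, stood at 1.43 FPKM with yeast and 1.38 FPKM with water. The rbcL gene encodes the carbon-fixing large subunit of RuBisCO. It lies at 59436 to 60863 and stood at 1.83 FPKM with yeast and 2.03 FPKM with water, a ratio of 0.901 (0.609 to 1.33). None of these differences exceeded counting error.

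The NDH complex carries electrons around photosystem I. Its 11 plastid genes summed to 6.32 FPKM in the yeast library and 5.63 FPKM in the water library, a ratio of 1.12 (0.875 to 1.44). This sum was decided by ndhB, which lies in the inverted repeat. Without it the other 10 genes summed to 4.33 FPKM with yeast and 5.19 FPKM with water, a ratio of 0.835 (0.620 to 1.12). Among these 10, ndhD was the highest in both libraries, at 0.812 FPKM with yeast and 1.33 FPKM with water, a ratio of 0.611 (0.363 to 1.05).

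The 4 rpo genes encode the bacterial-type RNA polymerase of the plastid, which transcribes the photosynthesis genes. They summed to 7.43 FPKM with yeast and 7.25 FPKM with water, a ratio of 1.03 (0.896 to 1.17). The rpoB gene, for the beta subunit (25361 to 28573), was the best covered protein gene, with 292 fragment equivalents in the yeast library and 276 in the water library. It stood at 4.30 FPKM with yeast and 4.37 FPKM with water, a ratio of 0.984 (0.833 to 1.17). The neighbouring rpoC1 stood at 2.02 FPKM with yeast and 1.53 FPKM with water, and rpoC2 at 0.647 FPKM with yeast and 0.555 FPKM with water. In both libraries, levels per length fell in the order of these genes, from rpoB to rpoC1 to rpoC2, and the counting intervals of rpoB lay above those of rpoC1. The rpoA gene lies elsewhere and stood at 0.471 FPKM with yeast and 0.800 FPKM with water, a ratio of 0.589 (0.236 to 1.37).

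Ribosomal protein genes were the highest protein class by median level. The 12 rps genes, for the small subunit, summed to 17.4 FPKM with yeast and 19.3 FPKM with water, a ratio of 0.902 (0.737 to 1.11). The 9 rpl genes, for the large subunit, summed to 17.7 FPKM with yeast and 18.4 FPKM with water, a ratio of 0.962 (0.748 to 1.24). None of the 16 measured members was past 2-fold. The rps3 gene (87680 to 88336) stood at 3.18 FPKM in the yeast library and 5.42 FPKM in the water library, a ratio of 0.586 (0.392 to 0.866). That interval holds the 0.800 median of all measured genes. The neighbour rpl22, which overlaps rps3, stood at 3.94 FPKM with yeast and 4.62 FPKM with water, a ratio of 0.853 (0.553 to 1.36). In the run of 10 genes from rpoA to rps19, 7 reached 10 fragment equivalents and all 7 had ratios below 1. The run summed to 18.8 FPKM with yeast and 24.2 FPKM with water, a ratio of 0.778 (0.632 to 0.957), close to the 0.800 median of all genes. The choice of this run was made with its values in view.

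Without rRNA, the leading genes of the libraries overlapped but stood in a different order. In the yeast library rpoB was first at 4.30 FPKM (3.82 to 4.83, counting interval), then rpl22 at 3.94 FPKM (2.85 to 5.39) and atpF at 3.68 FPKM (2.64 to 4.91). In the water library rps3 was first at 5.42 FPKM (4.22 to 6.84), then psbA at 4.96 FPKM (4.07 to 6.03), rpl22 at 4.62 FPKM (3.32 to 6.14) and rpoB at 4.37 FPKM (3.86 to 4.91). Neighbours in these orders did not differ beyond their counting intervals. Of the 10 highest genes without rRNA, 7 were shared by both libraries. The first pair in water, rps3 and psbA, ranked 5 and 8 with yeast, and trnD-GUC, rps7 and trnI-GAU, in the yeast library's 10, ranked 18, 24 and 32 with water.

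Other plastid genes serve fatty acid synthesis, protein turnover and splicing. The accD gene encodes a subunit of the acetyl-CoA carboxylase that starts fatty acid synthesis. It lies at 61474 to 63000 and stood at 0.656 FPKM in the yeast library and 1.43 FPKM in the water library, from 21.2 and 43.0 fragment equivalents. It was lower with yeast, at a ratio of 0.459 (0.257 to 0.784). The clpP gene, for a protease subunit, stood at 1.72 FPKM with yeast and 1.81 FPKM with water. The matK gene, for an intron maturase, stood at 0.576 FPKM with yeast and 0.741 FPKM with water, and lies inside trnK-UUU. The long ycf1, a protein gene in most plants, stood at 0.379 FPKM with yeast and 0.347 FPKM with water, a ratio of 1.09 (0.685 to 1.70).

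**Figure D2:**
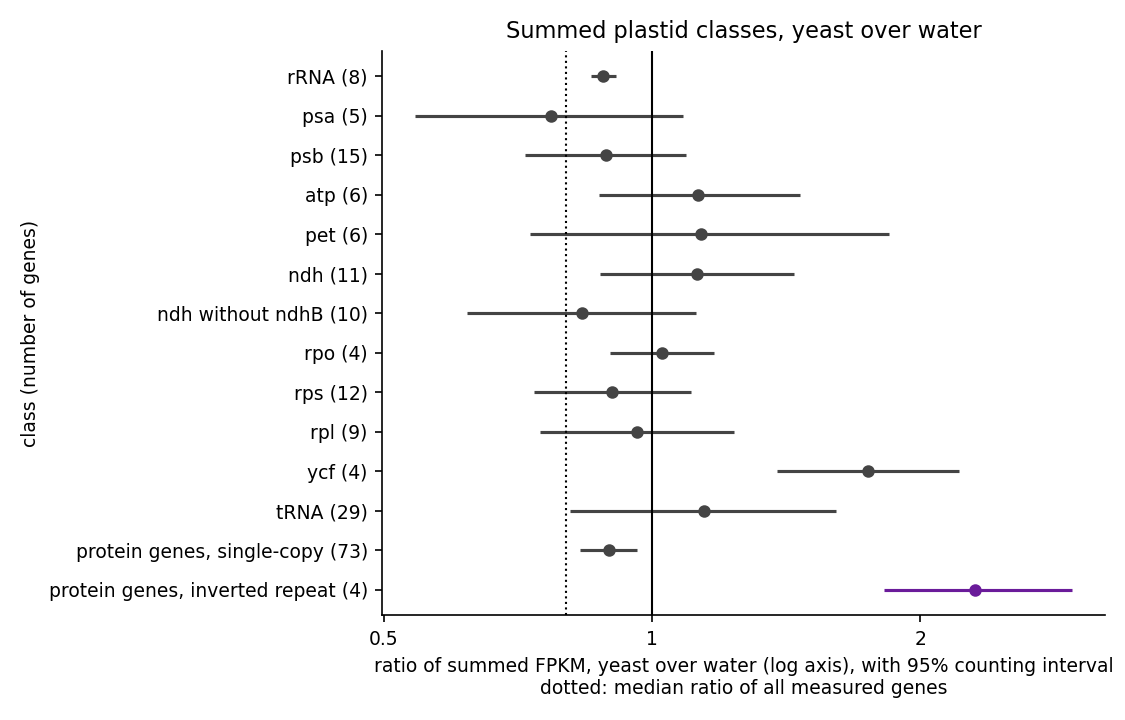
Ratio of summed FPKM, yeast over water, on a log axis for classes of plastid genes, with 95% counting intervals; the solid line is 1 and the dotted line the median ratio of all measured genes, 0.800. The protein genes of the inverted repeat lie at 2.30 and the single-copy protein genes at 0.894; the ycf class rests on ycf2, which is in the repeat.

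The protein genes of the inverted repeat had higher ratios than most other plastid genes. In the files, 28 models have a mirror image, in stretches from 90763 to 114056 and from 136004 to 159297 of the plastid sequence. Of the protein genes, 4 lie wholly in these stretches, and all 4 had ratios above 1. They summed to 8.51 FPKM in the yeast library and 3.70 FPKM in the water library, a ratio of 2.30 (1.82 to 2.96). If each fragment was counted at both copies, the interval would be 1.62 to 3.25. The 73 protein genes outside these stretches include rpl2 and leave out rps12. They summed to 79.3 FPKM with yeast and 88.8 FPKM with water, a ratio of 0.894 (0.829 to 0.963). This contrast was noticed in the values and was not tested, since genes are not replicates and each group has 1 library.

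The ycf2 gene, a very large gene known in tobacco to be essential, carries most of the fragments behind this sum. It is 6903 bases long and lies at 91372 to 98274, with its copy at 151786 to 158688. Its first copy stood at 0.567 FPKM in the yeast library and 0.212 FPKM in the water library, and its second copy at 0.562 FPKM with yeast and 0.215 FPKM with water. Together they held 165 fragment equivalents with yeast and 58.0 with water, a ratio of 2.64 (1.95 to 3.64). Counted at 1 copy only, the interval was 1.71 to 4.18.

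The ndhB gene, for a membrane subunit of the NDH complex, had the highest ratio of all plastid genes with at least 10 fragment equivalents. Its first copy (99934 to 102145) stood at 0.977 FPKM with yeast and 0.276 FPKM with water, and its second copy (147915 to 150126) at 1.01 FPKM with yeast and 0.163 FPKM with water. Together they held 64.4 fragment equivalents with yeast and 13.2 with water. The summed level was 1.99 FPKM with yeast and 0.439 FPKM with water, a ratio of 4.53 (2.50 to 9.08). Counted at 1 copy only, the interval was 1.85 to 11.4. No other ndh gene of at least 10 fragment equivalents had a ratio above 1.

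The remaining protein genes of the repeat, rps7 and rpl23, had ratios above 1 with intervals that include 1. The rps7 gene, for a small-subunit protein, stood at 2.94 FPKM with yeast and 1.73 FPKM with water, a ratio of 1.70 (0.888 to 3.33, or 0.695 to 4.76 counted at 1 copy only). The rpl23 gene, for a large-subunit protein, stood at 2.45 FPKM with yeast and 1.10 FPKM with water, a ratio of 2.23 (0.854 to 7.33, or 0.496 to 13.0 counted at 1 copy only). The rps12 gene is assembled from separate transcripts, with exons in the large single-copy region and in the repeat. Over its models it stood at 2.26 FPKM with yeast and 1.47 FPKM with water, a ratio of 1.53 (0.576 to 5.07). The model of its exons in the repeat alone stood at 1.14 FPKM with yeast and 0.431 FPKM with water, and the model of its first exon alone at 0.269 FPKM with yeast and 0.745 FPKM with water. The rpl2 gene, next to rpl23 and listed at a single locus, stood at 0.796 FPKM with yeast and 0.521 FPKM with water, a ratio of 1.53 (0.638 to 4.49).

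**Figure D3:**
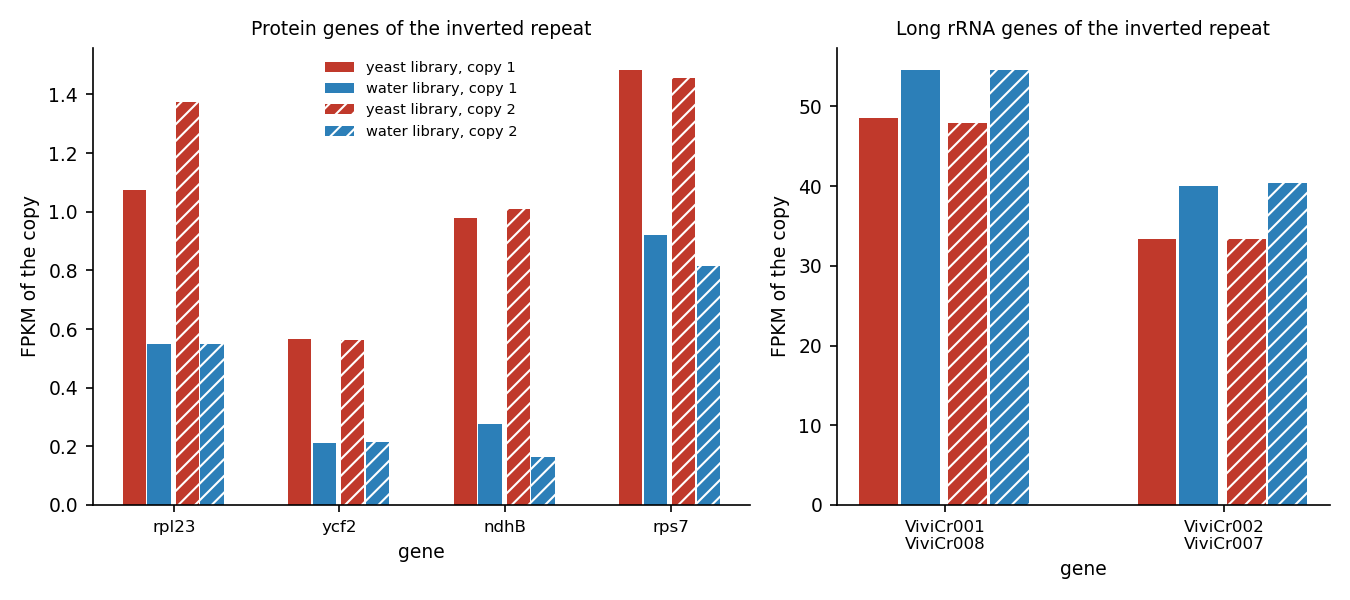
FPKM of each copy of the genes in the inverted repeat, yeast library (red) left of the water library (blue), second copy hatched; axes start at 0. Each copy of rpl23, ycf2, ndhB and rps7 is higher in the yeast library, while both copies of both long rRNA genes are lower.

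Among single-copy protein genes with at least 10 fragment equivalents and a value in both libraries, 36 in all, 11 had ratios above 1 and 25 below. The highest ratio among them was 1.53, that of rpl2, and the next 1.40, that of atpF. The lowest was 0.459, that of accD. The median ratio of these 36 genes was 0.897, above the 0.800 median of all measured genes. Ratios below 1 were thus common in the whole table too, though the filters of the 2 medians differ. Here the edge of the repeat is the outermost mirrored model, at 90763, so rpl2, listed once at 89256 to 90744, counts as single-copy. Whether the repeat reaches further was not checked. All 5 such genes of the small single-copy region other than ycf1 had ratios below 1, from 0.611 to 0.893, a range that holds 0.800. Counting intervals excluded 1 on the higher side in 2 of 47 plastid genes (ndhB and ycf2) and on the lower side in 7 (psbA, rps3, accD and the 4 long rRNA genes). These 4 are 2 pairs of repeat copies with each copy counted, whereas the protein genes of the repeat are summed over copies and counted once. Among all 18372 genes with the same minimum of 10 fragment equivalents, 16.0% were on the higher side and 52.2% on the lower side, against 4.26% and 14.9% of the plastid genes. Above that minimum, depth was not matched. Median levels were 0.766 FPKM with yeast and 0.737 FPKM with water over all plastid genes, against 8.08 and 9.68 FPKM over all measured genes. The plastid medians include genes below 1 FPKM and the others do not, so the gap is partly one of filters. Neither set is that of genes with at least 10 fragment equivalents. Intervals exclude 1 more readily with more fragments, so the lower plastid shares do not show smaller differences.

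**Figure D4:**
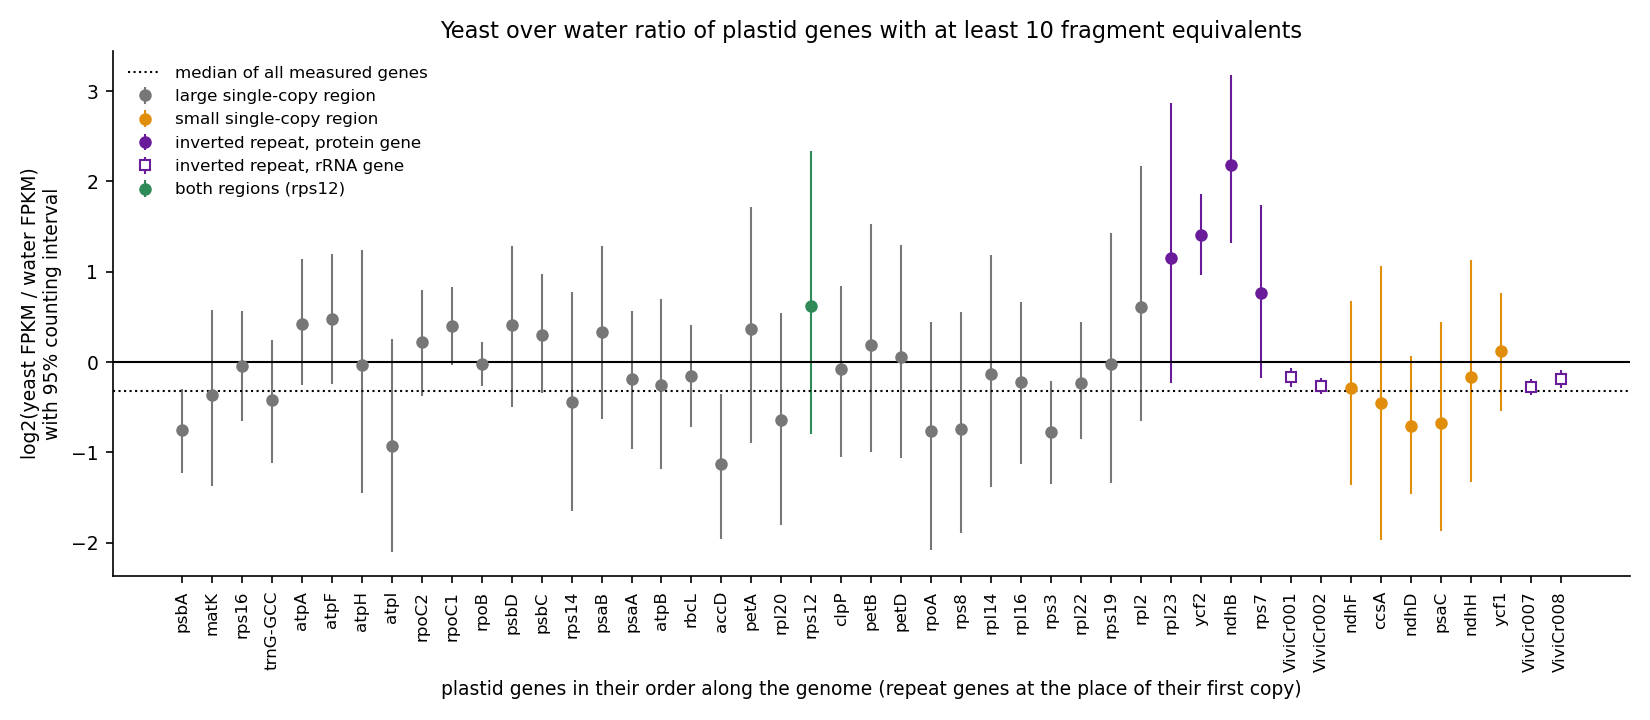
log2 of the yeast over water FPKM ratio (vertical axis, 95% counting interval) for the 47 plastid genes with at least 10 fragment equivalents in either library and a value in both, in their order along the genome. The protein genes of the inverted repeat stand above 0, ndhB and ycf2 beyond counting error and rps7 and rpl23 within it. The rRNA genes of the same repeat stand just below 0, and most single-copy genes within counting error of 0.

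The tRNA genes were at the limit of detection. The 29 tRNA names summed to 23.0 FPKM with yeast and 20.1 FPKM with water, a ratio of 1.14 (0.809 to 1.61). In fragment equivalents, each scaled to library depth, the direction turned, at a ratio of 0.902. Much of the class stood under trnG-GCC, with 34.9 of 69.9 fragment equivalents with yeast and 43.6 of 71.8 with water. They lie on an assembled model of 1230 bases, while both annotated tRNA models of that name were listed at 0. The other 28 genes, 66 to 93 bases long, held at most 5.46 fragment equivalents in either library. Of these trnD-GUC was the highest in the yeast library, at 3.49 FPKM with yeast and 1.87 FPKM with water, a ratio of 1.87 (0.302 to 10.0). In the water library trnQ-UUG was the highest, at 3.15 FPKM with yeast and 2.45 FPKM with water. Listed at 0 in both libraries were trnF-GAA, trnT-GGU and trnfM-CAU. Whether the libraries could capture molecules this short is not stated by the labels.

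Unspliced models carried most fragments of rps16 and rpoC1, the split protein genes for which such a model is listed. The other split protein genes have none, and a fragment inside an exon fits both kinds of model. Retention of introns was therefore not tested. For rps16, the 1643-base model without a splice held 48.5 fragment equivalents with yeast and 42.8 with water, against 1.89 and 2.44 on the spliced model of 276 bases. The unspliced model, at 4808 to 6450, runs past both ends of the spliced one, at 5154 to 6329. For rpoC1, the unspliced model held 88.6 with yeast and 65.1 with water, against 22.7 and 14.2 on the spliced model. The summed levels were alike in both libraries for rps16, at 1.72 FPKM with yeast and 1.77 FPKM with water. For rpoC1 the ratio was 1.32 (0.981 to 1.79).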

How the data were processed

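RNA was sequenced from 1 yeast-treated and 1 water-treated library of wound tissue from total RNA by Illumina methods, per the labels' protocols. The submitters' processing notes name HISAT2 and HTSeq 0.6.1 without their roles. Whether poly(A) RNA was selected, the strand setting, the genome build and the handling of reads with several matches are not given in the sources used here. Per the file headers, the authors deposited for each of 53908 transcript models the FPKM and the per-base coverage signal before any depth scaling. A deposited gene table of 31144 rows, named FPKM but with values that differ from the FPKM of the genes they stand beside, was treated as a score and used as an alternative.

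FPKM was summed per gene name within the plastid, mitochondrial and nuclear sequences (Python 3.11.15, pandas 2.3.3, scipy 1.17.1). Fragment equivalents were coverage times length divided by 300. For ratios, fragment equivalents were rounded and the bounds of an exact 95% binomial interval were carried to the FPKM ratio, and those of levels are exact Poisson intervals. Intervals were checked on simulated counts that held counting error alone, for genes of at least 10 fragment equivalents and 1 FPKM. That check does not cover reads with several matches, overlapping models or thinner genes. Inverted repeat copies were found from mirrored positions of models of equal length. ViviCr002 and ViviCr007, both 2803 bases long, are not exact mirror images and were treated as copies by their name prefix. Classes followed name prefixes. The names, positions and types of all 116 names were matched by symbol to a RefSeq gene table. Named genes were those with at least 30 fragment equivalents, past 2-fold, highest of their class, or at 0 in both libraries, and others were named after their values were seen. Members and lists were chosen with earlier results of these data known. No sequence is printed, because none was in the sources used here. Alternatives were other pseudocounts, filters, scalings and sets of genes.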

Additional observations from a re-analysis of the deposited data

How the results depend on the processing

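No paired analysis was possible because neither group has a second library, and for the same reason no replicate could be left out. Depth limits most single genes, since 37 of 116 had under 3 fragment equivalents in both libraries. The plastid share, 0.0429% with yeast and 0.0487% with water, was 0.00746% and 0.00793% without genes at 2 or more loci, 0.0420% and 0.0476% without overlapping genes, 0.0375% and 0.0399% of summed FPKM, and 0.00885% and 0.00847% without the rRNA genes, a choice added after the values were seen. Without the rRNA genes the yeast share was thus the higher, with overlapping intervals. The log2 ratio of the summed plastid FPKM, -0.12, was -0.18 in fragment equivalents scaled to depth, 0.21 after rescaling all measured genes to a median of 0 and -0.012 without the rRNA genes. That rescaling adds 0.32 to each such log2 ratio by construction. It turned the photosystem ratio (-0.23) to 0.092, the ribosomal protein ratio (-0.10) to 0.22 and the ratio of other genes (-0.15) to 0.17, and moved the rpo ratio (0.04) to 0.36. The ratio of other genes was -0.21 in fragment equivalents scaled to depth, 0.022 without genes at 2 or more loci and 0.065 without the rRNA genes. The tRNA log2 ratio (0.19) was -0.15 in fragment equivalents scaled to depth. The ndh log2 ratio (0.17) was -0.26 without ndhB, which is both its leading gene and its only gene at 2 loci. The 4 repeat protein genes, an added choice, had a log2 ratio of 1.20, which was 1.44 in fragment equivalents scaled to depth, 1.52 after rescaling and 1.17 without ycf2. Without ndhB it also stayed within its counting interval (0.86 to 1.56). The count of plastid genes at least 2-fold higher, 2, was 5 with a pseudocount of 0.1, 0 with 5, 0 at an FPKM of at least 10, 1 at 10 fragment equivalents and 4 by the plain ratio. The count of lower genes, 1, was 3 with a pseudocount of 0.1 and 0 with a pseudocount of 5, after rescaling, at an FPKM of at least 10, at 10 fragment equivalents and in the deposited gene table. Of the alternatives of named genes, 102 stayed within counting error of the main value, 6 moved beyond it and 0 reversed a gene past 2-fold. The 102 include every alternative of psbI, trnR-UCU, trnF-GAA, trnT-GGU and trnfM-CAU. These genes have no bounded counting interval, so none of their alternatives could be counted as moved. In the deposited gene table the log2 ratio of psbI went from -1.18 to -0.13 and that of trnR-UCU from 1.13 to 0.16.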

Other observations

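Of the 116 plastid gene names, 31 also stood on the mitochondrial sequence, all of them protein genes. Among them are names of photosynthesis genes, which in plants belong to the plastid, and names of ribosomal proteins, which a mitochondrion can also encode for itself. For 7 of the 31 names the mitochondrial models were listed at 0 in both libraries. The mitochondrial rbcL models together held 0.660 FPKM in the yeast library and 1.68 FPKM in the water library, while plastid rbcL held 1.83 FPKM with yeast and 2.03 FPKM with water. Summed over both genomes, rbcL had a ratio of 0.671, against 0.901 on the plastid genome alone. For atpA the mitochondrial model held 0.895 FPKM with yeast and 0.779 FPKM with water.

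Plastid protein genes whose name stands only on the plastid genome, 47 in all, summed to 49.9 FPKM with yeast and 47.4 FPKM with water, a ratio of 1.05 (0.968 to 1.14). Without the repeat genes ndhB, ycf2 and rpl23 the other 44 summed to 44.3 FPKM with yeast and 45.4 FPKM with water, a ratio of 0.975 (0.893 to 1.07), so the direction rests on those 3 genes. The 31 with a mitochondrial namesake summed to 40.2 FPKM with yeast and 46.5 FPKM with water, a ratio of 0.864 (0.755 to 0.988). Of the 4 repeat protein genes, rps7 alone has a mitochondrial namesake, at 1.34 FPKM with yeast and 1.23 FPKM with water. This division was made after the values were seen, and the difference between its sets was not tested.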
